A study of Homo sapiens with 8 samples.

Results

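The genes described here are 7 keratins that mark colon epithelium or its cancers, namely KRT20, KRT19, KRT18, KRT8, KRT7, KRT23 and KRT80. They were taken as the probe sets that the platform annotation assigns to 1 of these symbols and to no other gene, which gave 11 of the 54675 probe sets on the arrays and 7 of the 19775 genes with such a probe set. Total RNA from cultures of 2 colon cancer lines was measured on 8 arrays, with 2 arrays in each of 4 groups: DKS-5 (K-ras mutant) after 12 h of hypoxia at 1% O2, DKS-5 in normoxia at 21% O2, DKO-3 after 12 h of hypoxia at 1% O2, and DKO-3 in normoxia at 21% O2. The labels call the genotype of DKO-3 K-ras knockout (wild-type). Each genotype was represented by 1 line, so that K-ras status and any other difference between these lines cannot be told apart, and the labels do not say whether the 2 samples of a group were separate cultures. If they were not, the p-values describe technical spread alone.

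Keratins form the intermediate filaments of epithelial cells. An acidic type I chain (KRT18, KRT19, KRT20 and KRT23 here) always pairs with a basic type II chain (KRT7, KRT8 and KRT80 here), and the filaments are anchored at desmosomes by plakin proteins. KRT8 and KRT18 are the main pair of simple epithelia such as the gut lining. KRT19 is found along the colon crypt, and KRT20 is the keratin of differentiated enterocytes and goblet cells. KRT7 belongs mainly to ductal and glandular epithelia, and pathologists read KRT20 together with KRT7 to place carcinomas of unknown origin.

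In these cultures KRT20 had the largest difference between the lines, and KRT19 was the only keratin of the set past the threshold for hypoxia. KRT19 passed for hypoxia in DKS-5 and over both lines, and not in DKO-3. Between the lines KRT19 passed too, in normoxia and over both oxygen levels. KRT20 was bright in DKO-3 and at the lower end of the signal range in DKS-5 at either oxygen level. KRT19 was higher in hypoxia than in normoxia in both lines and lower in DKS-5 than in DKO-3. KRT18 was bright on every array, and for KRT18, KRT8, KRT7 and KRT80 no comparison passed the threshold. KRT23 was too dim to be tested.

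KRT20 is shown with its promoter because it had the largest difference between the lines. The window spans the 250 bases before and the 50 bases after the start of the gene at chr17:40885193-40885492 on the minus strand (RefSeq, GRCh38.p14), read 5′ to 3′, and the capitals mark a match to TTTATG, a motif of the intestinal CDX factors, on the opposite strand.
KRT20: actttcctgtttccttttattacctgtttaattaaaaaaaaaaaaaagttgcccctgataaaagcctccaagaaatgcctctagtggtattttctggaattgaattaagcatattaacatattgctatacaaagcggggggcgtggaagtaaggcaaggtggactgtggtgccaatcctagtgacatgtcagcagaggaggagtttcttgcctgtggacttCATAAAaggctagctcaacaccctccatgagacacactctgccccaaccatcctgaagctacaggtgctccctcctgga
The match lay at bases -29 to -24 from the start. Of the 34943 promoters of that length in the table, 10.6% held TTTATG on either strand. The window held no match to ACGTG, the core of the hypoxia response element, which 21.4% of the promoters held, nor to GGGCGG (the GC box, 44.9%) or TGANTCA (AP-1, 7.72%). Among the keratins described here the promoter table also listed KRT8, whose window held none of these 4 motifs on either strand. A match is a run of letters and no measured binding site.

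The signals are MAS5 intensities, scaled here so that all arrays share a trimmed mean of 172.9; the deposited trimmed means ran from 133 to 202. Differences are given on the scale log2(scaled signal + 16), with SE, and were tested with limma over 12735 genes, each represented by its brightest probe set. Two-sided p-values were adjusted over all of these genes and read against 0.05. A gene was tested where its mean over the 8 arrays lay above a scaled signal of about 13.8, which 6 of the 7 keratins did. Pearson's r over the genes tested lay between 0.976 and 0.989 for arrays of the same group, and between 0.955 and 0.986 for arrays of different groups. Replicates were thus not always closest to each other. DKS-5 hypoxia replicate 1 had 0.976 with its own replicate and 0.986 with DKS-5 normoxia replicate 1. NDRG1, a textbook hypoxia gene, had 1995 and 2095 in DKS-5 hypoxia against 132 and 127 in DKS-5 normoxia, and 2006 and 1930 in DKO-3 hypoxia against 413 and 341 in DKO-3 normoxia. The 3′ to 5′ signal ratio of the ACTB control probe sets, a measure of RNA quality and priming, was 54.8 and 25.6 in DKS-5 hypoxia, 55.1 and 34.3 in DKS-5 normoxia, 11.5 and 11.0 in DKO-3 hypoxia, and 49.0 and 14.9 in DKO-3 normoxia.

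Of the 11 colon epithelium markers looked at, 6 were above the level for testing. The epithelial adhesion genes EPCAM (5315 to 7749) and CDH1 (4478 to 5858) were bright on every array, and CDX2, CLDN4 and CLDN7 lay between 38.1 and 341. CDX1, LGALS4, CEACAM5, GPA33 and CLDN3, which mark differentiated colonocytes or their junctions, had means over the 8 arrays below that level, though CEACAM5, CLDN3 and GPA33 exceeded it on single arrays. VIL1, the brush border protein villin, ran against KRT20, with 54.7 to 103 on the DKS-5 arrays and 12.8 to 17.5 on the DKO-3 arrays, a log2 difference of 1.65 ± 0.18 over both oxygen levels (SE; adjusted p = 2.29e-05). Of the markers of other cell types, 0 of 3 leukocyte and 0 of 4 endothelial genes were above the level for testing. COL1A1 and ACTA2 of 7 mesenchymal genes, the 1 erythroid gene and KRT10 of 5 squamous genes were above it, and none of them passed in any comparison.

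**Figure D1:**
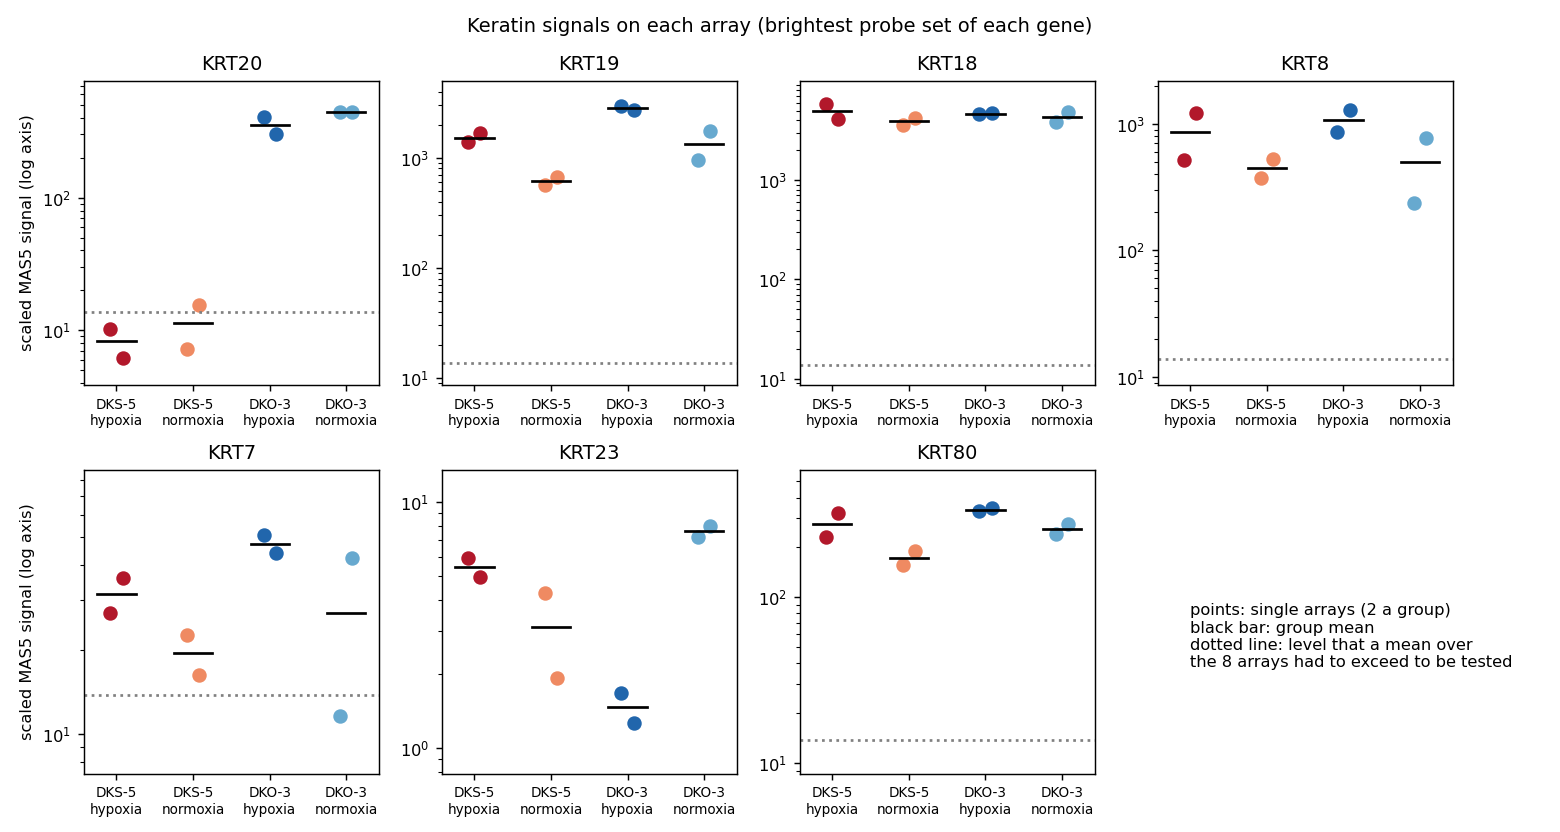
Scaled MAS5 signal (log axis) of the 7 keratins in each group, 1 point per array and a black bar at the mean of the 2 arrays. The 4 DKO-3 arrays of KRT20 lie between 301 and 445, above the 4 DKS-5 arrays at 6.19 to 15.5, and KRT18 stays between 3622 and 5850 in all groups.

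The first question was how the keratin transcripts differ between the K-ras mutant and the K-ras wild-type line. KRT20 had scaled signals of 10.3 and 6.19 in DKS-5 hypoxia and 7.18 and 15.5 in DKS-5 normoxia. In DKO-3 it had 407 and 301 in hypoxia and 445 and 444 in normoxia. Every DKO-3 array was far above every DKS-5 array, and 3 of the 4 DKS-5 arrays were below the level for testing, so that KRT20 was tested only through its level in DKO-3. The difference, DKS-5 minus DKO-3, was -4.09 ± 0.26 in normoxia (adjusted p = 5.09e-07) and -3.92 ± 0.26 in hypoxia (adjusted p = 9.43e-07; SE, 2 arrays per group). With each DKS-5 array raised to at least 13.8, KRT20 was at least 30.4-fold lower in DKS-5 than in DKO-3 in normoxia and at least 25.4-fold lower in hypoxia. The fitted size depends on the added constant, and with 1 in place of 16 the values were -5.26 and -5.28. The call held in each of the 17 other settings run at either oxygen level, with adjusted p of at most 0.000442. With the ACTB ratio as a covariate the difference was -4.09 in normoxia and -3.92 in hypoxia. In RNA of a whole culture, fewer cells that carry a transcript and less of it per cell cannot be told apart.

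KRT19, the smallest of the type I keratins, was lower in DKS-5 than in DKO-3 too, by a far smaller amount. It had 1387 and 1668 in DKS-5 hypoxia against 2930 and 2719 in DKO-3 hypoxia, and 571 and 671 in DKS-5 normoxia against 951 and 1743 in DKO-3 normoxia. At either oxygen level the arrays of the lines did not overlap. The line difference of KRT19 was -1.04 ± 0.24 in normoxia, past the threshold (adjusted p = 0.0311), and -0.89 ± 0.24 in hypoxia, short of it (adjusted p = 0.0516). Over both oxygen levels it was -0.96 ± 0.17 (adjusted p = 0.00191), and a second, dimmer KRT19 probe set gave the same value to 2 decimals, -0.96 ± 0.24 (adjusted p = 0.0293 over the 32768 probe sets tested, of which 5.7% passed). That probe set had 12.7 and 18.7 in DKS-5 normoxia, near the level for testing, which limits the size of its difference. The ACTB ratio moved with the lines, since 3 of the 4 DKO-3 arrays had lower ratios than any DKS-5 array. With this ratio as a covariate the difference over both oxygen levels was -0.46 (adjusted p = 0.261), and its part in the result was not tested further. The call in normoxia held in 9 of 17 other settings. It was lost without a filter on low values (adjusted p = 0.133), with the mean of all probe sets (0.0866), with the ACTB ratio as a covariate (0.0789), and without either DKS-5 normoxia array, without DKO-3 normoxia replicate 2 and without either DKO-3 hypoxia array, with adjusted p of up to 0.378 and a value of -0.61 without DKO-3 normoxia replicate 2.

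None of the remaining keratins passed between the lines. KRT18 had 5850 and 4121 in DKS-5 hypoxia against 4665 and 4697 in DKO-3 hypoxia, and 3622 and 4183 in DKS-5 normoxia against 3815 and 4805 in DKO-3 normoxia. The groups overlapped, and the difference over both oxygen levels was -0.03, with a 95% interval from -0.30 to 0.23. KRT8 differed by -0.18 (95% interval -0.84 to 0.48) and KRT7 by -0.31 (-0.77 to 0.16). A second, dimmer KRT7 probe set gave -0.80 (-1.29 to -0.31) and did not pass (adjusted p = 0.0570 over the probe sets tested). Its DKS-5 group means lay below 13.8, which limits the size of this difference. KRT80, a type II keratin found near desmosomes, was lower in DKS-5 without overlap at each oxygen level, at -0.42 over both (-0.78 to -0.05; adjusted p = 0.162). In all, 2 of the 6 tested keratins fell in DKS-5 in normoxia (KRT20 and KRT19), where 2.54% of all genes tested passed in either direction. In hypoxia 1 fell (KRT20), where 4.38% passed, and over both oxygen levels 2 fell (KRT20 and KRT19), where 9.12% passed. The median difference of the 6 over both oxygen levels was -0.36, beside -0.01 for all genes tested. KRT20, KRT19 and KRT80 were lower in DKS-5 without overlap at both oxygen levels, as were 12.4% of all genes tested.

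The next question was how the keratins respond to low oxygen. KRT19 rose in DKS-5, where its signals were 1387 and 1668 in hypoxia against 571 and 671 in normoxia. In DKO-3 they were 2930 and 2719 in hypoxia against 951 and 1743 in normoxia. In both lines each hypoxia array lay above each normoxia array, with a clear gap. The difference was 1.28 ± 0.24 in DKS-5 (adjusted p = 0.0221) and 1.12 ± 0.24 in DKO-3 (adjusted p = 0.0726, not past the threshold), and over both lines it was 1.20 ± 0.17, or 2.30-fold on this scale (adjusted p = 0.00118). By size the value over both lines was the 46th highest of 12735 genes.

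KRT19 had a second, dimmer probe set above the level for testing by its mean. The dimmer one had 47.0 and 102 in DKS-5 hypoxia against 12.7 and 18.7 in DKS-5 normoxia, and 118 and 146 in DKO-3 hypoxia against 35.9 and 77.5 in DKO-3 normoxia. Hypoxia again lay above normoxia in both lines, with a difference of 1.26 ± 0.24 over both lines (adjusted p = 0.0222 over the probe sets tested, of which 0.607% passed). The dimmer probe set was near the level for testing in DKS-5 normoxia, which limits the size of this difference. The probe sets of a gene share its RNA and are not replicates.

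The KRT19 response in DKS-5 alone passed in 8 of 17 other settings. Without DKS-5 hypoxia replicate 2, either DKS-5 normoxia array or either DKO-3 hypoxia array the call in DKS-5 was lost, with values between 1.14 and 1.39 and adjusted p between 0.0571 and 0.381. It was also lost without a filter on low values (0.177), without scaling (0.154), with the mean of all probe sets (0.120) and with the 4 DKS-5 arrays alone (0.0522). In DKO-3 the value was 0.69 without normoxia replicate 1 (adjusted p = 0.780) and 1.55 without normoxia replicate 2 (adjusted p = 0.0213). Over both lines the call held in all 16 other settings run, with values from 0.89 to 1.41 and adjusted p of at most 0.0280.

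RNA quality moved with oxygen in DKO-3, whose hypoxia arrays had ACTB ratios of 11.5 and 11.0 against 49.0 and 14.9 in normoxia. With the ratio as a covariate KRT19 stood at 0.60 in DKO-3 (adjusted p = 0.983), 1.19 in DKS-5 (adjusted p = 0.00730) and 0.89 over both lines (adjusted p = 0.0197). In DKS-5, replicate 1 of the hypoxia and of the normoxia group had nearly equal ratios, 54.8 and 55.1, and KRT19 was at 1387 in hypoxia against 571 in normoxia on these arrays. These are single arrays, and the part of RNA quality in the KRT19 response was not tested further.

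**Figure D2:**
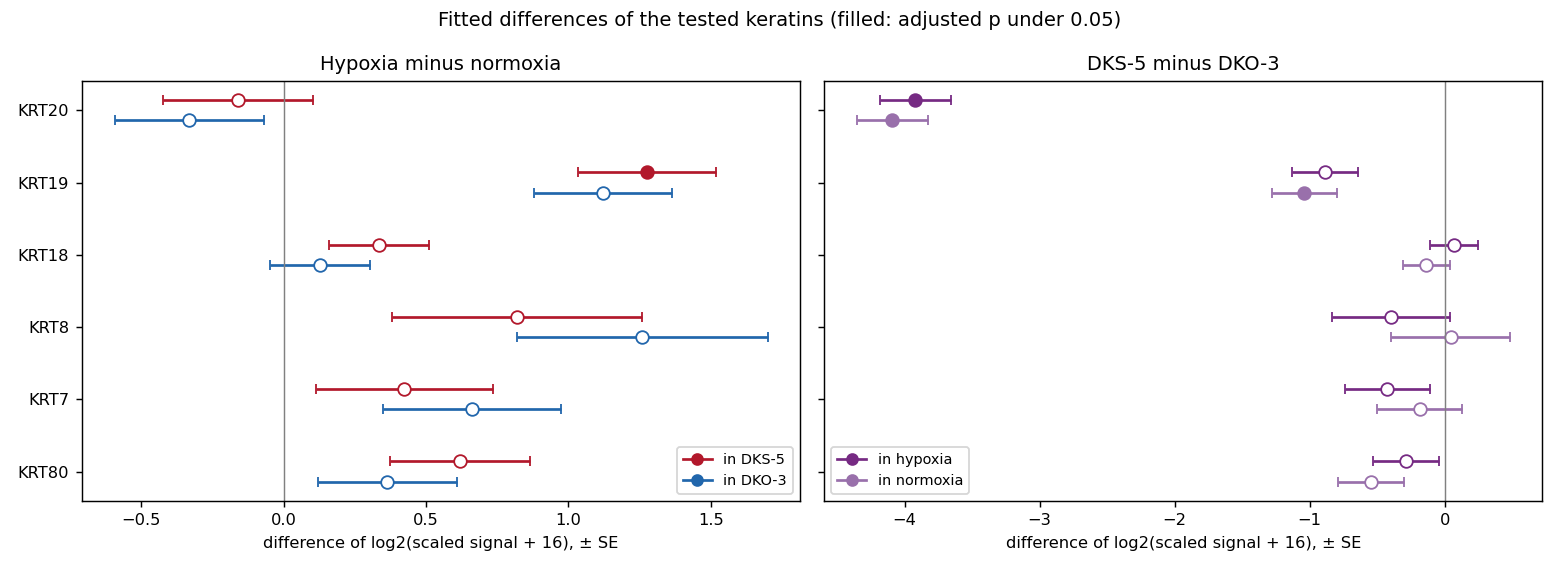
Fitted differences of the 6 tested keratins on the scale log2(scaled signal + 16), with bars of 1 SE and filled points where the adjusted p was under 0.05. Left, hypoxia minus normoxia, where KRT19 lies at 1.28 in DKS-5 and 1.12 in DKO-3; right, DKS-5 minus DKO-3, where KRT20 lies at -3.92 in hypoxia and -4.09 in normoxia.

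KRT8, the type II partner of KRT18, had the highest difference of the set in DKO-3, with widely scattered arrays, and did not pass. It had 517 and 1221 in DKS-5 hypoxia against 372 and 529 in DKS-5 normoxia, and 864 and 1283 in DKO-3 hypoxia against 238 and 769 in DKO-3 normoxia. The groups overlapped in DKS-5 and not in DKO-3. The difference was 0.82 ± 0.44 in DKS-5 (adjusted p = 0.776), 1.26 ± 0.44 in DKO-3 (adjusted p = 0.346) and 1.04 ± 0.31 over both lines (adjusted p = 0.140). Without DKO-3 normoxia replicate 1 it was 0.45 in DKO-3 and 0.63 over both lines, and without replicate 2 it was 2.07 in DKO-3 and 1.45 over both lines (adjusted p = 0.0242 over both). Over both lines KRT8 passed in 3 of 16 other settings (adjusted p from 0.00209 to 0.797), and in DKO-3 in 1 of 17, the replicate block (0.0184). In all 4 groups the array with the lower ACTB ratio had the higher KRT8 signal. This was also the case for KRT80 and for 8.09% of all genes tested. In DKO-3 hypoxia the ACTB ratios were nearly equal, at 11.5 and 11.0. The same ratio of the GAPDH control probe sets ordered the arrays the other way in DKS-5 normoxia and DKO-3 hypoxia. There KRT8 and KRT80 were higher on the array with the higher GAPDH ratio. In the remaining groups both ratios gave the same order. With the ACTB ratio as a covariate KRT8 stood at 0.03 in DKO-3 and 0.32 over both lines. Between the lines over both oxygen levels KRT8 stood at 1.00 (adjusted p = 0.0360), where it was -0.18 without the covariate.

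KRT18 had the smallest SE of the set and did not pass either. Its difference was 0.33 ± 0.18 in DKS-5 (adjusted p = 0.773) and 0.13 ± 0.18 in DKO-3 (adjusted p = 0.845), with overlap in both lines, and over both lines the 95% interval ran from -0.03 to 0.49. KRT8 and KRT18 were each read by 1 probe set of a kind (x_at) that the array's design marks as open to cross-hybridization, and the RefSeq table lists 52 pseudogenes named after KRT8 and 68 named after KRT18. Their signals may therefore include transcripts of such copies.

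**Figure D3:**
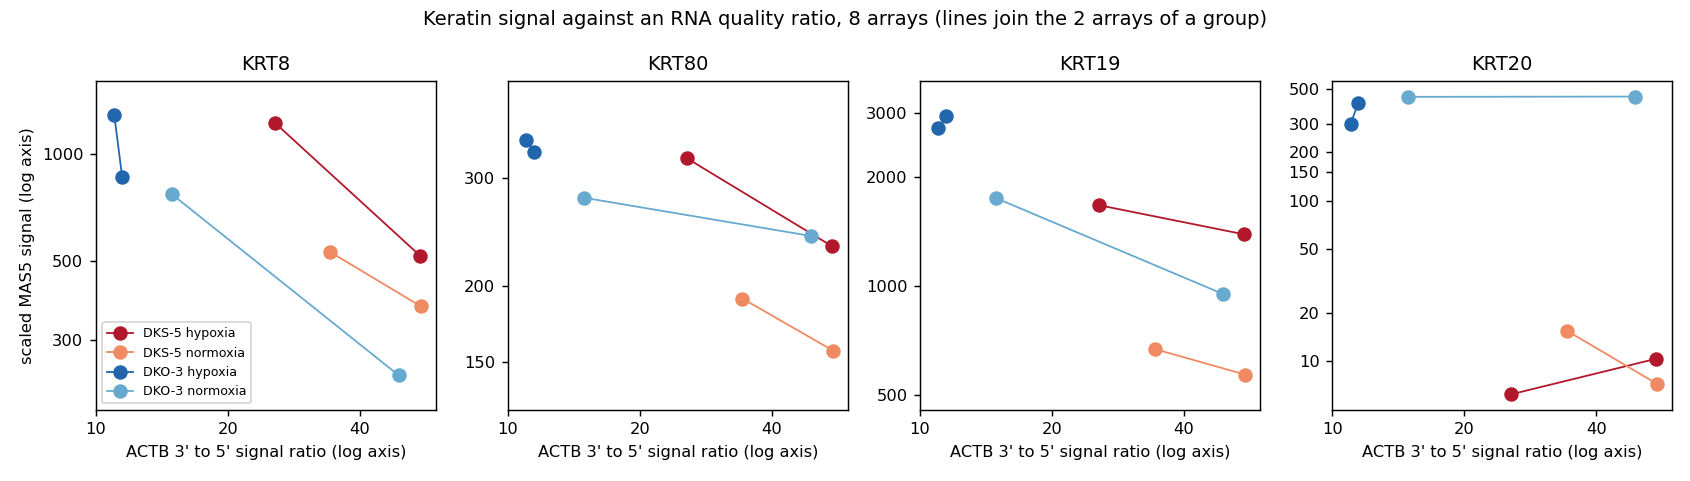
Scaled MAS5 signal of KRT8, KRT80, KRT19 and KRT20 (log axis) against the ACTB 3′ to 5′ ratio of the same array (log axis), with a line joining the 2 arrays of each group. KRT8 is higher at the lower ratio in all 4 groups, and KRT20 has 445 and 444 in DKO-3 normoxia at ratios of 49.0 and 14.9.

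KRT80 had 232 and 323 in DKS-5 hypoxia against 157 and 191 in DKS-5 normoxia, and 331 and 346 in DKO-3 hypoxia against 241 and 279 in DKO-3 normoxia. Hypoxia arrays lay above normoxia arrays in both lines, and the difference over both was 0.49 ± 0.17 (adjusted p = 0.207). KRT7 was dim. Its brightest of 4 probe sets had 27.0 and 36.0 in DKS-5 hypoxia against 22.6 and 16.2 in DKS-5 normoxia, and 51.2 and 43.9 in DKO-3 hypoxia against 11.6 and 42.3 in DKO-3 normoxia. The hypoxia arrays were higher in both lines, narrowly so in DKO-3, and the difference over both was 0.54 ± 0.22 (adjusted p = 0.279). Without DKO-3 normoxia replicate 1 the difference was 0.12 in DKO-3 and 0.27 over both lines, and without replicate 2 it was 1.20 in DKO-3 and 0.81 over both lines; KRT7 passed in none of the settings run for these 2 comparisons. A second KRT7 probe set gave 0.63 in DKO-3, and its DKS-5 group means lay below 13.8, so that no direction is drawn there. The other 2 were below the level for testing by their means.

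KRT20 did not follow KRT19 in hypoxia. In DKO-3, where it was well measured, it had 407 and 301 in hypoxia against 445 and 444 in normoxia, and the difference was -0.33 ± 0.26 (adjusted p = 0.696; 95% interval -0.89 to 0.23). In DKS-5 it was near the lower end of the signal range in both groups, at -0.16 ± 0.26. KRT23, a further type I keratin and the chromosomal neighbour of KRT20 in the RefSeq table, had 5.91 and 4.95 in DKS-5 hypoxia, 4.25 and 1.93 in DKS-5 normoxia, 1.67 and 1.26 in DKO-3 hypoxia, and 7.22 and 7.94 in DKO-3 normoxia. All of these lay below 13.8, and no fold is drawn from them.

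Counted together, 1 of the 6 tested keratins rose in hypoxia in DKS-5 (KRT19), where 0.503% of all genes tested passed, and 0 passed in DKO-3, where 0.346% did. KRT19 in DKO-3 passed in 6 of 17 other settings, against 8 of 17 in DKS-5. In DKO-3, limma gave an unadjusted p under 0.05 for 2 of the 6, KRT19 and KRT8, as it did for 10.5% of all genes. Over both lines KRT19 alone rose, where 1.19% of all genes passed. Apart from KRT20, 5 of the 6 had a difference above 0 in both lines, as did 35.7% of all genes, and the medians over all 6 were 0.52 in DKS-5 and 0.51 in DKO-3, beside 0.02 and 0.03 for all genes tested. KRT19, KRT7 and KRT80 were higher in hypoxia without overlap in both lines, as were 8.54% of all genes.

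Whether the response to hypoxia differed between the lines was tested as the DKS-5 response minus the DKO-3 response. No keratin passed, nor did any of the 12735 genes (0% called; limma gave 334 genes, or 2.62%, an unadjusted p under 0.05, none of them a keratin of this set). The value was 0.15 ± 0.34 for KRT19, with a 95% interval from -0.58 to 0.88. The test could miss differences above this interval, since NDRG1 had 1.48 ± 0.29 and did not pass (adjusted p = 0.742). For the other keratins the value was 0.17 ± 0.37 (KRT20), 0.21 ± 0.25 (KRT18), -0.44 ± 0.62 (KRT8), -0.24 ± 0.44 (KRT7) and 0.26 ± 0.35 (KRT80).

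**Figure D4:**
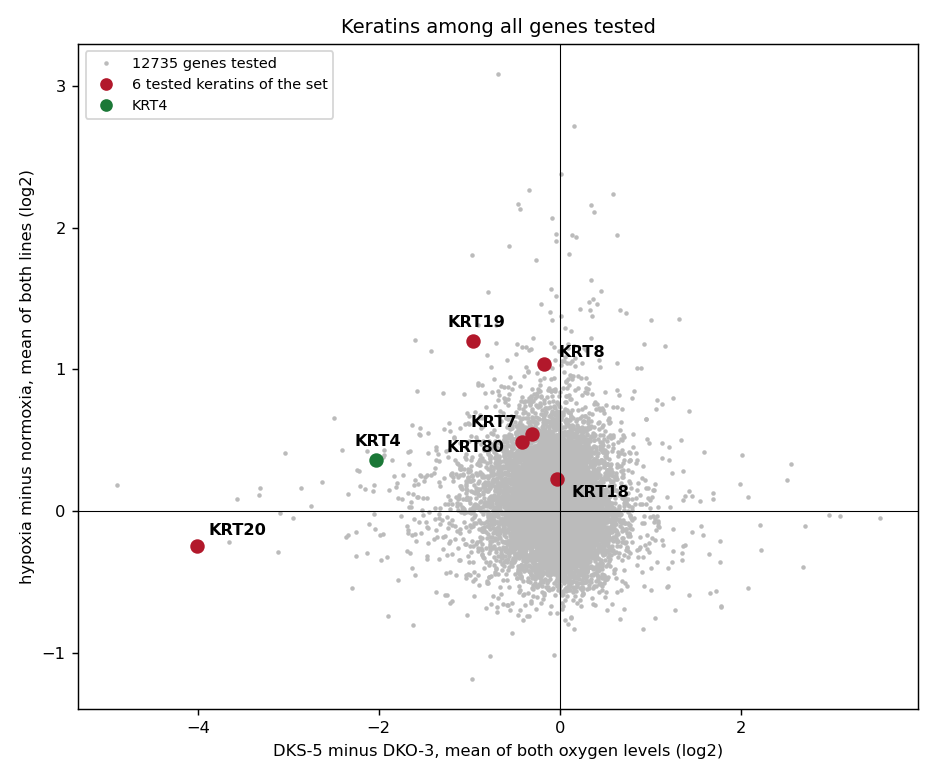
Each gene tested is placed by its line difference (DKS-5 minus DKO-3, mean of both oxygen levels, log2, x axis) and its difference between oxygen levels (hypoxia minus normoxia, mean of both lines, log2, y axis). KRT20 lies at -4.01 on the x axis and -0.25 on the y axis, and KRT19 at -0.96 and 1.20.

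By group means of the scaled signal 4 of the 6 tested keratins, KRT19, KRT80, KRT8 and KRT7, had the same order of groups. On the log2 scale used for the tests KRT8 left this order, with means of 8.85 in DKS-5 normoxia and 8.80 in DKO-3 normoxia. How many of all genes had this order was not counted. KRT19 ran from DKO-3 hypoxia (2825 ± 149, SD, n = 2) over DKS-5 hypoxia (1527 ± 198) and DKO-3 normoxia (1347 ± 560) to DKS-5 normoxia (621 ± 70.9), and the arrays of the middle pair of groups overlapped. KRT80 had 338 ± 10.8 in DKO-3 hypoxia, 278 ± 64.3 in DKS-5 hypoxia, 260 ± 26.4 in DKO-3 normoxia and 174 ± 24.0 in DKS-5 normoxia, again with overlap of the middle pair. KRT20 ran from DKO-3 normoxia (445 ± 1.26) and DKO-3 hypoxia (354 ± 75.3) to DKS-5 normoxia (11.3 ± 5.85) and DKS-5 hypoxia (8.25 ± 2.91), where the DKS-5 groups overlapped.

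Genes with the most similar pattern were sought by Pearson's r of log2 values over the 8 arrays, which share their group structure, so that r is high for any gene set by the line. KRT20 was most like PROM1 (r = 0.99), the stem cell surface protein prominin, which had 81.6 to 122 on the DKS-5 arrays and 804 to 1302 on the DKO-3 arrays. INPP5D, a phosphoinositide phosphatase, and KCNK6, a potassium channel, followed at r = 0.99 each. INPP5D had 0.842 to 3.22 on the DKS-5 arrays, below the level for testing, and 41.8 to 49.4 on the DKO-3 arrays. KRT19 was most like MALL (r = 0.99), a membrane raft protein of epithelia, which had 868 and 1242 in DKS-5 hypoxia against 313 and 484 in DKS-5 normoxia, and 1992 and 1757 in DKO-3 hypoxia against 532 and 1143 in DKO-3 normoxia. The metallothionein gene MT1G and R3HCC1 followed at 0.98 each. The genes most like KRT8 were MGAT1, ELOF1 and SCAMP3 (r = 0.98 each), those most like KRT80 were EXOC4 (0.98), GADD45B (0.98) and YIF1B (0.97), those most like KRT7 were TEX264 (0.98), LAS1L (0.97) and PINK1-AS (0.97), and those most like KRT18 were ZNF821 (0.95), DNLZ (0.94) and IGFBP5 (0.93).

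The other keratins were mostly dim on these arrays. Of 37 further keratin genes with a probe set, 7 were bright enough to be tested, and 1 of them, KRT4, passed in any comparison. It passed between the lines in normoxia, in hypoxia and over both oxygen levels, where 2.54%, 4.38% and 9.12% of all genes did. KRT4, a type II keratin of the lining of mouth and gullet, had 1.56 and 8.23 in DKS-5 hypoxia against 98.9 and 59.0 in DKO-3 hypoxia, and 1.27 and 2.24 in DKS-5 normoxia against 69.9 and 34.0 in DKO-3 normoxia. All DKS-5 arrays were below 13.8, and KRT4 was tested only through its level in DKO-3 (adjusted p = 1.90e-05 over both oxygen levels). With the DKS-5 arrays raised to 13.8, KRT4 was at least 5.54-fold lower in DKS-5 than in DKO-3 in hypoxia and at least 3.54-fold lower in normoxia. KRT10 was the one further keratin with a signal above 100, at 465 to 850. KRT12 and KRT23, which flank KRT20 on chromosome 17, reached at most 12.2 and 7.94 on any array. No further keratin passed for hypoxia in DKS-5, in DKO-3 or over both lines, where 0.503%, 0.346% and 1.19% of all genes did.

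Of the 18 tested genes for desmosomes and plakins, the anchors of keratin filaments, 0 passed for hypoxia in either line or over both. At most 1.19% of all genes passed in these comparisons. Over both oxygen levels 2 were higher in DKS-5 than in DKO-3, the desmosomal cadherin genes DSC2 (0.95 ± 0.24, adjusted p = 0.0221) and DSG2 (0.65 ± 0.17, adjusted p = 0.0207). The periplakin gene PPL was lower (-0.60 ± 0.15, adjusted p = 0.0192), and 15 did not pass, so that 3 of 18 were called where 9.12% of all genes were. DSC2 had 227 and 459 in DKS-5 hypoxia against 97.6 and 169 in DKO-3 hypoxia. PPL had 384 to 516 on the DKS-5 arrays and 600 to 845 on the DKO-3 arrays, so that its lines did not overlap. The median of the list was 0.18 over both oxygen levels, beside -0.01 for all genes tested.

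Among 7 tested intermediate filament genes other than keratins, the lens filament gene BFSP1 (-1.06 ± 0.17, adjusted p = 0.000937) and the synemin gene SYNM (-0.82 ± 0.18, adjusted p = 0.00734) were lower in DKS-5 over both oxygen levels, and the lamin gene LMNB1 was higher (0.55 ± 0.16, adjusted p = 0.0410), so that 3 of 7 were called where 9.12% of all genes were. VIM, the filament gene of mesenchymal cells, had a mean below the level for testing, with 1.74 to 20.5 on single arrays. Of 15 tested epithelial transcription factor genes, TFAP2A passed, with a higher level in DKS-5 (1.00 ± 0.19 over both oxygen levels, adjusted p = 0.00339), and 14 did not. This is 1 of 15, near the 9.12% of all genes called. CDX2, a factor of intestinal identity, had 70.2 and 147 in DKS-5 hypoxia against 220 and 108 in DKO-3 hypoxia, with overlap, and did not pass. Of 13 tested genes that modify, fold or degrade keratins or related proteins, the ubiquitin ligase gene TRIM21 was lower in DKS-5 (-0.85 ± 0.18 over both oxygen levels, adjusted p = 0.00705), which is 1 of 13, near the 9.12% of all genes called. None of these 3 lists had a gene past the threshold for hypoxia in either line or over both. At most 1.19% of all genes passed there.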

How the data were processed

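Total RNA of 8 samples was amplified, labelled with biotin and hybridized to 1-colour arrays, per the labels' protocols. The deposited values are probe set intensities on a linear scale, and MAS5 made them, per the submitters' processing notes. Its version, target intensity and detection calls are not given in the sources used here. Arrays differed up to 1.52-fold in their 2% trimmed mean, beyond a tolerance of 10%, and each was scaled to the median of these means. Values were taken as log2(signal + 16). Controls (62 probe sets) were dropped. Of the other probe sets 41091 had 1 gene symbol, 1801 several and 11721 were unnamed here. The brightest probe set by mean stood for its gene, and genes above the 40th percentile of probe set means were tested.

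Tests used limma 3.58.1 in R 4.3.3, with 1 mean per group over all 8 arrays, eBayes with a trend (4 residual and 11.3 prior degrees of freedom), two-sided, with Benjamini-Hochberg adjustment over all genes tested. It was tested on simulated data. Precision is limited by having 2 arrays a group. All 7 symbols matched the RefSeq table of GRCh38.p14, used for names, neighbours and promoters.

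The keratins and lists were chosen with earlier results of these data known. Named were all 7 keratins, per list up to 4 genes with the smallest p among those past the threshold (2 where none passed), NDRG1 (CA9 was not analysed here), cell type markers, and the 3 genes most like each tested keratin. MALL and the other genes of that kind carry no test here. The alternatives were other pseudocounts, no filter, no scaling, quantile normalization, the mean of probe sets, a fit of 4 arrays, a replicate block, the ACTB ratio as a covariate, and each array left out.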

Additional observations from a re-analysis of the deposited data

How the results depend on the processing

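Of the 689 values of the 6 tested keratins under alternatives, 617 kept their direction and side of the threshold and 36 reversed. With the direction kept, 18 newly passed and 18 no longer passed. KRT20 between the lines passed in every alternative run. In the counts below the comparisons are hypoxia in DKS-5, in DKO-3 and over both lines, then the lines in normoxia, in hypoxia and over both oxygen levels, where 64, 44, 152, 324, 558 and 1161 genes passed, and 86, 58, 199, 378, 683 and 1869 probe sets. Without a filter, which adds dim genes to the adjustment, 35, 7, 70, 144, 218 and 773 genes and 37, 1, 71, 130, 234 and 1032 probe sets passed. Without scaling 32 genes (39 probe sets) passed for hypoxia in DKS-5, 84 (116) in DKO-3, 2383 (5211) for the lines in hypoxia and 1774 (3544) over both oxygen levels. Without scaling the median of all genes moved to -0.19, 0.20, -0.42 and -0.21 in these comparisons, and to -0.41 for the difference of the responses. The share of higher calls was 2.64% for the lines in hypoxia without scaling (31.9% with it) and 7.72% over both oxygen levels (32.6% with it). With the mean of all probe sets 42 genes passed for hypoxia in DKS-5. With 4 arrays only, 36 genes (48 probe sets) passed for hypoxia in DKS-5, 71 genes in DKO-3 and 354 (370) for the lines in hypoxia. With the ACTB ratio as a covariate 14 genes (8 probe sets) passed for hypoxia in DKO-3, 63 (91) over both lines, 128 (104) for the lines in hypoxia and 446 (532) over both oxygen levels. The labels do not say that replicate numbers mark a shared batch. Correlations of replicate differences ran from -0.09 to 0.33, highest between the lines at the same oxygen level (0.33 in hypoxia and 0.21 in normoxia), so that a pairing was neither given by the labels nor shown to be absent. With the replicate block 92 genes (115 probe sets) passed for hypoxia in DKO-3 and 325 (369) over both lines, and 587 probe sets for the lines in normoxia and 1180 in hypoxia. With 1 array left out, the lone array being assumed to vary like the others, the counts ran from 29 to 294, 1 to 69, 58 to 764, 119 to 443, 135 to 761 and 630 to 1517 genes, and from 31 to 193, 1 to 77, 89 to 786, 111 to 513, 201 to 854 and 915 to 2299 probe sets; the difference of the responses stayed at 0.

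Reversals touched values that had not passed before, and 1 reversed value, of KRT8, passed. For the difference of the responses they were -0.019 for KRT20 with a pseudocount of 1, and without scaling -0.10 for KRT20, -0.29 for KRT19, -0.25 for KRT18 and -0.17 for KRT80. KRT18 between the lines in hypoxia was -0.39 without scaling and -0.16 with quantile normalization. With the ACTB ratio as a covariate the lines differed by 0.10 in normoxia for KRT7, and in hypoxia by 1.29 for KRT8, 0.31 for KRT7 and 0.091 for KRT80. Over both oxygen levels this gave 0.0076 for KRT18, 1.00 for KRT8 (limma adjusted p = 0.0360, past the threshold) and 0.21 for KRT7. For the difference of the responses it gave 0.59 for KRT8 and 0.21 for KRT7. With 1 array left out KRT20 in DKS-5 hypoxia ran from -0.38 to 0.060 and KRT18 in DKO-3 hypoxia from -0.038 to 0.29. The lines in normoxia ran from -0.30 to 0.029 for KRT18, -0.77 to 0.86 for KRT8 and -0.72 to 0.35 for KRT7. In hypoxia they ran from -0.18 to 0.32 for KRT18 and -1.004 to 0.21 for KRT8, and over both from -0.16 to 0.092 for KRT18 and -0.58 to 0.23 for KRT8. The difference of the responses ran from -0.049 to 0.39 for KRT20, -0.28 to 0.59 for KRT19, -0.046 to 0.46 for KRT18, -1.25 to 0.38 for KRT8 and -0.78 to 0.30 for KRT7. The cause was not tested. Signals under about 13.8 limit KRT20 in DKS-5 and KRT23 in every group.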
